A study of Danio rerio with 23 samples.

Results

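The fed controls of a starvation and refeeding experiment in adult zebrafish comprised 11 of the 23 intestinal RNA-seq libraries of the series and were taken by their labels, with no use of measured values. They fall into 3 time points: 3 libraries at 3 days post-starvation (3dpS), 4 at 21dpS and 4 at 3 days post-refeeding (3dpR), which were days 3, 21 and 24 of the experiment. The day names refer to the starved tanks, and the fish described here were fed throughout with Artemia and the pelleted diet Gemma. These libraries were therefore compared with each other to see how the fed adult gut moved over the weeks in which it served as the reference.

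All fish were siblings from 1 breeding pair that had been distributed at random among clean tanks at 60 days post fertilization (dpf), so the time points correspond to 63, 81 and 84 dpf, although the labels give 81 dpf for every library. The labels name no strain, transgene or deletion and give no sex. Each library held the whole intestine of a different fish, and the fed fish came from 2 tanks. The name Fed1Gut1 was thus read as gut 1 from fed tank 1, and the gut numbers of different time points are different fish. Library values are given in the order Fed1Gut1, Fed2Gut2 and Fed2Gut3 at 3dpS, then Fed1Gut1, Fed1Gut3, Fed2Gut1 and Fed2Gut3 at 21dpS, then Fed1Gut2, Fed1Gut3, Fed2Gut2 and Fed2Gut3 at 3dpR. The spread measured is that between sibling fish of 2 tanks, age and sampling day cannot be told apart, and in whole intestines fewer cells of a type cannot be told apart from less RNA per cell.

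The intestine of a young adult fish keeps working and keeps growing at once. Its enterocytes digest and absorb nutrients at an apical brush border and package dietary fat with apolipoproteins into chylomicrons, while the epithelium is renewed by division and needs ribosomes to do so. Cells also adjust cholesterol synthesis to supply, because sterol-poor membranes release the transcription factor Srebf2, which turns on the enzymes of the pathway. Feeding time, light, stress hormones and age are all known to shift gut transcription, so controls sampled on different days need not be interchangeable.

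The 11 libraries held 515792 to 712850 gene-assigned reads each, with a median of 596487, spread over 11050 to 12632 detected genes. Values are CPM, the reads of a gene relative to the library size after scaling by TMM factors. A count of 3 reads corresponded to 4.435 to 6.437 CPM, so the lower genes named here rest on few reads. A total of 3905 genes passed the filter on low counts and were tested, and they held 95.2 to 96.91% of the reads. All 7 matched enterocyte markers were tested, with a summed level of 2800 to 4820 CPM, whereas none of 10 goblet cell and none of 18 enteroendocrine markers had enough reads (sums of 8.06 to 25.7 and 26.6 to 54.8 CPM). The library 3dpS Fed1Gut1 stood apart: the unannotated gene si:dkey-57c15.11 took 260000 CPM there and 12500 to 63200 CPM in the other 10, and markers of exocrine pancreas summed to 6470 CPM against 409 to 1710 CPM. Of the 1710 CPM, 921 CPM came from a single marker, pla2g1b, which overlaps asgrl1. Values without the library 3dpS Fed1Gut1 are given where stated, and all others include it.

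The strand option of the counting is not given in the sources used here, and 2 measurements bear on how a gene's value should be read. MT-ND6, the only 1 of 13 mitochondrial protein genes encoded on the opposite strand to the rest, had more reads than every other one in 11 of 11 libraries, with a mean of 15670 reads against 3624 for MT-CO1. Of the 10 most abundant genes, 6 were found in the RefSeq gene table of assembly GRCz12tu and all 6 overlapped another gene. The ubiquitin ligase gene rnf214, for example, had 31200 to 73800 CPM and overlaps apoa1a, the main high-density lipoprotein apolipoprotein, which had 116 to 468 CPM. A gene's value below is the count that the deposited files assign to it, and overlap on either strand is given for the named genes found in RefSeq. Besides those named at their values, the list genes cd36, npc1l1, srebf2, dpp4, mep1a.1, sgk1, npm1a and rpl22 and the genes scarb1, has3, trpc1, polg and si:dkeyp-1h4.9 overlap another RefSeq gene. AGFG1, BZW1, si:ch211-195b11.4, si:dkey-57c15.11 and the genes given by identifier were not matched, and their overlap is not known here. How much of any value came from the other strand was not tested.

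Time point accounted for 27.3% of the variance of the 500 most variable genes (exact permutation test over 11550 assignments of the 11 libraries, p = 0.0471, reached by 544 of them). Random assignments to groups of these sizes also give a share well above 0, so the share is to be read only with its p-value. The first principal component held 24.3% of the variance, of which 57.1% lay between time points and 21.3% between tanks. On this component the 3dpS fish scored 10.69, 8.87 and 16.87, the 21dpS fish -21.5, -13.65, 5.23 and -9.94, and the 3dpR fish 5.33, -10.16, 9.47 and -1.22. The 3dpS and 21dpS fish did not overlap on it, and the 3dpR fish lay between and among them. The second component held 20% of the variance and had more of it between tanks (35.2%) than between time points (19%). With the tank means removed, the share between time points was 31.8% (exact permutation within tanks, p = 0.0237). The share was 25.3 to 32% when single libraries were left out, and its p-value rose above 0.05 in 8 of these 11 cases. Those were the cases without 3dpS Fed1Gut1 (p = 0.0533), 3dpS Fed2Gut2 (0.0959), 3dpS Fed2Gut3 (0.221), 21dpS Fed1Gut1 (0.131), 21dpS Fed2Gut3 (0.118), 3dpR Fed1Gut2 (0.0638), 3dpR Fed2Gut2 (0.0567) and 3dpR Fed2Gut3 (0.0867), all by the same exact permutation test.

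**Figure D1:**
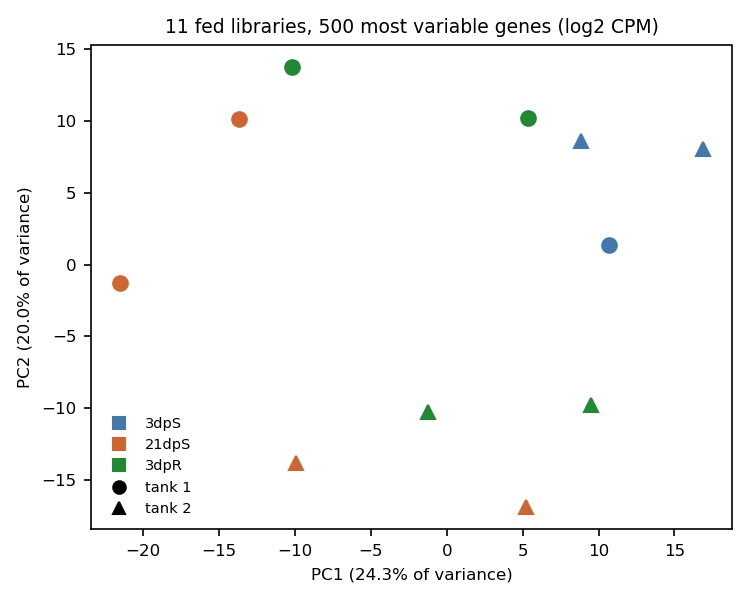
Scores of the 11 fed libraries on the first 2 principal components of log2 CPM over the 500 most variable genes, with the share of variance on each axis and a point per fish marked by time point and tank. The 3dpS fish lie to the right (8.87 to 16.87 on the first component) and 3 of the 4 21dpS fish to the left (-21.5 to -9.94).

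With edgeR's quasi-likelihood test, few single genes were called as different between fed time points after adjustment over all 3905 genes tested (called at a Benjamini-Hochberg adjusted p under 0.05). From 3dpS to 21dpS, 1 gene was called (0.0256%), the apolipoprotein A-IV gene apoa4b.3, and 565 genes had an unadjusted p under 0.05 (14.5%), of which 301 were higher (7.71%) and 264 lower (6.76%) at 21dpS. From 21dpS to 3dpR, 1 gene was called, lower at 3dpR (0.0256%), and 218 had an unadjusted p under 0.05 (5.58%), 98 higher (2.51%) and 120 lower (3.07%) at 3dpR. Between 3dpS and 3dpR no gene was called (0%), with a smallest adjusted p of 0.577, 231 genes at an unadjusted p under 0.05 (5.92%, 140 or 3.59% higher and 91 or 2.33% lower) and 1 call, themis2, with DESeq2. Setting 21dpS against the mean of the other 2 time points called 5 genes, all higher at 21dpS (0.128%), with 459 at an unadjusted p under 0.05 (11.8%), 253 higher (6.48%) and 206 lower (5.28%). Without 3dpS Fed1Gut1 this contrast called only 2 genes as higher at 21dpS. A test for any difference among the 3 time points called 2 genes (0.0512%; 403 genes, or 10.3%, at an unadjusted p under 0.05). The median absolute log2 difference over all tested genes was 0.39 from 3dpS to 21dpS, 0.27 from 21dpS to 3dpR and 0.30 from 3dpS to 3dpR, and the medians of the signed differences lay between -0.02 and 0.02. These comparisons share libraries, the 21dpS fish entering 3 of the 4 contrasts, so a high value in the 21dpS fish enters each of these. With tank as a block, 16 genes were called from 3dpS to 21dpS, 16 for 21dpS against the mean of the other time points and 3 over the 3 time points, while 1 and 0 were called in the remaining comparisons. Values with this block need care, because at 3dpS tank 1 was the single library Fed1Gut1. The block also takes the same tank difference at every time point, while tank differences at 3dpS and 21dpS correlated at only 0.0897. DESeq2 called more genes than edgeR, 70 from 3dpS to 21dpS (36 higher and 34 lower), 34 for 21dpS against the mean of the other time points and 38 over the 3 time points.

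The 5 genes higher at 21dpS than at the other time points were apoa4b.3, apoeb, cyp26a1, map3k4 and ENSDARG00000089635, an identifier without a symbol. Both apolipoprotein genes encode carriers of secreted lipid. Apolipoprotein A-IV is secreted by enterocytes on chylomicrons, and apolipoprotein E binds lipoprotein receptors. Cyp26a1 is the P450 enzyme that degrades retinoic acid, and Map3k4 is a kinase upstream of the p38 and JNK pathways.

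apoa4b.3 (ENSDARG00000094929) had 13.9, 20.7 and 16.8 CPM at 3dpS, 105, 68.8, 162 and 95.4 CPM at 21dpS, and 24.6, 51.5, 15.6 and 34.3 CPM at 3dpR. Every 21dpS fish lay above all 7 others. The level rose 6.18-fold from 3dpS (17.1 ± 3.42, SD, n = 3) to 21dpS (108 ± 39.2, n = 4), a log2 difference of 2.63 ± 0.42 (SE, adjusted p = 0.0357). Against the mean of both other time points it was 4.57-fold higher (log2 2.19 ± 0.31, adjusted p = 0.00439), and this call held in all 17 alternatives that tested it (adjusted p of 1.87e-09 to 0.0354). At 3dpR the mean was 31.5 ± 15.4 CPM, and the log2 difference from 21dpS, -1.76 ± 0.36, was not called by itself (adjusted p = 0.26). The increase from 3dpS alone was less stable, as it was lost without 3dpS Fed1Gut1 (adjusted p = 0.114), 3dpS Fed2Gut2 (0.0813), 3dpS Fed2Gut3 (0.106), 21dpS Fed1Gut1 (0.0932), 21dpS Fed2Gut1 (0.0581), 21dpS Fed2Gut3 (0.0827) or 3dpR Fed1Gut2 (0.0626) and in a fit over all 23 libraries (0.0611). No RefSeq gene overlaps apoa4b.3.

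apoeb (ENSDARG00000040295), which lies beside apoa4b.2 and apoc1 in the gene order of chromosome 16, had 60.8, 51.7 and 45.2 CPM at 3dpS, 150, 129, 204 and 117 CPM at 21dpS, and 81.5, 86.9, 39.1 and 42.9 CPM at 3dpR. The 21dpS fish again lay above the 7 others. Against the mean of the other time points apoeb rose by 1.38 ± 0.26 on the log2 scale (adjusted p = 0.0474). This call was near the threshold: it held in 8 of 18 alternatives (adjusted p of 0.000638 to 0.15) and was lost with any single library left out except 3dpR Fed1Gut3.

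map3k4 (ENSDARG00000104835) had 81.6, 106 and 78.7 CPM at 3dpS, 284, 196, 376 and 251 CPM at 21dpS, and 117, 163, 125 and 187 CPM at 3dpR. All 21dpS fish exceeded the rest, and the 3dpR fish exceeded the 3dpS fish. It rose by 1.27 ± 0.23 at 21dpS against the mean of the other time points (log2, adjusted p = 0.0315), a call that held in 10 of 18 alternatives (0.000306 to 0.145). Among other cases, this call was lost without 3dpS Fed1Gut1 (adjusted p = 0.0852). The difference from 3dpS to 21dpS was 1.63 ± 0.29 (adjusted p = 0.0528, or 0.0186 with tank as a block), and the test over 3 time points called it with that block only (adjusted p = 0.0493). It overlaps agpat4, which encodes an acyltransferase of phospholipid synthesis.

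ENSDARG00000089635 was nearly absent outside the 21dpS fish, with 3, 1 and 5 reads at 3dpS, 15, 11, 61 and 36 reads at 21dpS, and 1, 0, 1 and 0 reads at 3dpR. On the CPM scale the 21dpS fish ranged from 19.4 to 123 and the other 7 from 0 to 8.38. Summed, this was 123 reads at 21dpS against 9 at 3dpS (depth-scaled ratio 11.5, 95% counting interval 5.87 to 25.8) and 2 at 3dpR (63, 17.1 to 526), and the interval covers counting error only. The 21dpS fish lay above all 7 others, and the 3dpS and 3dpR fish overlapped. It was called at 21dpS against the mean of the other time points (adjusted p = 0.00439) in this fit and in all 16 alternatives that tested it. In this fit it passed the filter on low counts only through the 21dpS fish, in which it is high. Alternatives in which it failed the filter are not among the 16, so this count is not independent evidence. It was also the gene called as lower at 3dpR than at 21dpS (adjusted p = 0.0319). That call was lost without 3dpS Fed1Gut1 (adjusted p = 0.106), 21dpS Fed2Gut3 (0.122), 3dpR Fed1Gut2 (0.119), 3dpR Fed1Gut3 (0.0799), 3dpR Fed2Gut2 (0.179) or 3dpR Fed2Gut3 (0.254) and in a fit of these 2 time points alone (0.116). From 3dpS to 21dpS it was not called in this fit (adjusted p = 0.0857). It was called there with tank as a block (0.0186) and in a fit over all 23 libraries (0.0429).

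cyp26a1 (ENSDARG00000033999) was read in 3 of the 4 21dpS fish and hardly elsewhere. The values were 0, 1.48 and 0 CPM at 3dpS, 37.1, 35.3, 2.02 and 33.1 CPM at 21dpS, and 0, 0, 3.91 and 0 CPM at 3dpR. The groups overlapped, because Fed2Gut1 at 21dpS held 2.02 CPM. In all, 61 reads at 21dpS stood against 1 read at 3dpS (depth-scaled ratio 51.4, counting interval 8.88 to 2060) and 2 at 3dpR (31.3, 8.29 to 264). It was called at 21dpS against the mean of the other time points (adjusted p = 0.0232) and in 9 of 13 alternatives that tested it. As it passed the filter on low counts only through the 21dpS fish in which it is high, this count is not independent evidence. The call was lost without 3dpS Fed1Gut1 (adjusted p = 0.0852), 3dpS Fed2Gut2 (0.0512), 3dpS Fed2Gut3 (0.105) or 3dpR Fed1Gut2 (0.0651). Leaving out any of the 3 fish with high values removed the gene from the test.

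**Figure D2:**
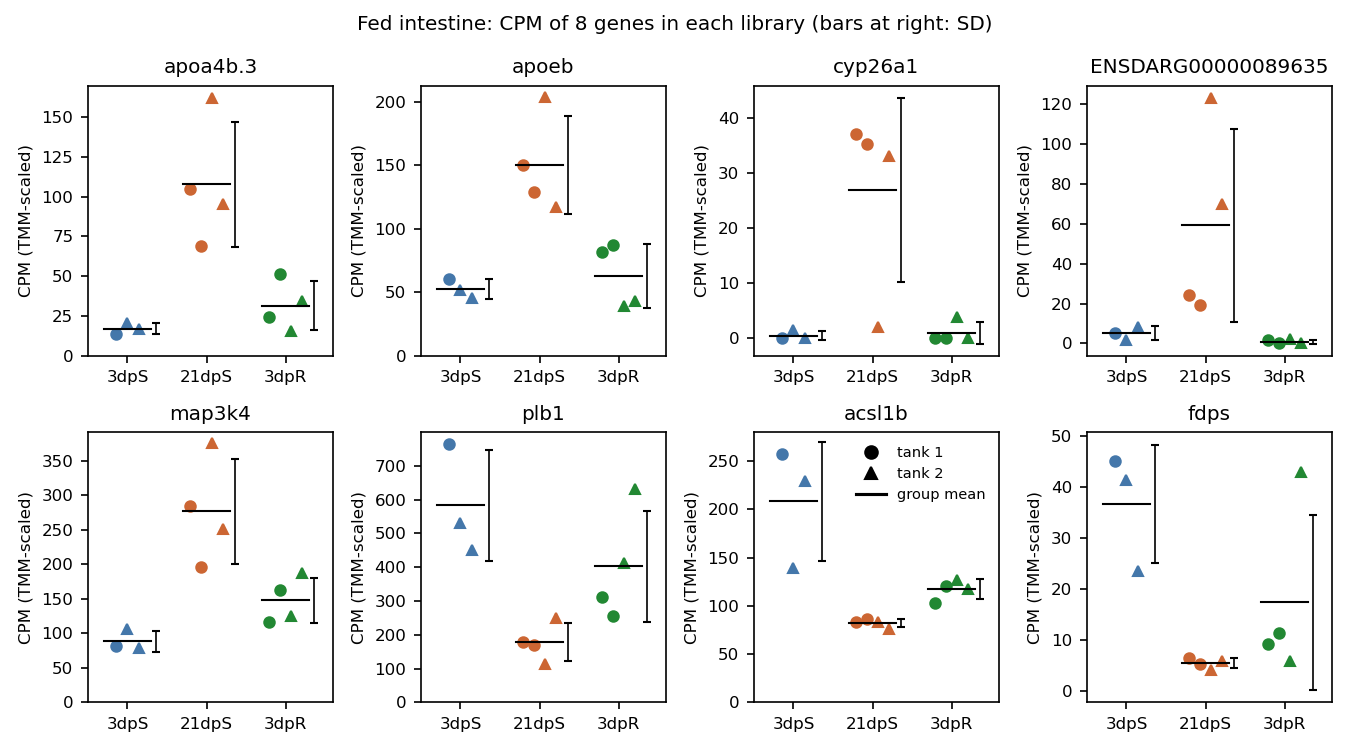
Level of 8 genes (CPM, linear axes) in each fed library at 3dpS, 21dpS and 3dpR, with circles for tank 1, triangles for tank 2, a line at the group mean and bars for the SD. apoa4b.3 and apoeb have all 4 21dpS fish above the other 7, while plb1, acsl1b and fdps were lowest on average at 21dpS.

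Beyond these calls, 32 genes had all 4 21dpS fish above the other 7 (0.819%) and 30 had them all below (0.768%), and the strongest of each are given here by value. Among those above, homezb, a homeobox and leucine zipper gene, had 20.8, 29.6 and 30.2 CPM at 3dpS, 51.6, 102, 83 and 81.8 CPM at 21dpS, and 27.7, 49.9, 37.1 and 27.9 CPM at 3dpR (log2 difference from the mean of the other time points 1.35 ± 0.26, adjusted p = 0.0521, or 0.0318 with tank as a block). BZW1, a regulator of translation start, had 1.68 to 13.9 CPM at 3dpS, 37.1 to 121 CPM at 21dpS and 9.22 to 27.4 CPM at 3dpR (log2 2.24, adjusted p = 0.0521). Without the 21dpS fish, in which it is high, BZW1 would not have passed the filter on low counts. jak2a, a kinase of cytokine receptors, had 31.3, 82.8 and 30.2 CPM at 3dpS, 189, 132, 969 and 189 CPM at 21dpS, and 38.4, 59.6, 25.4 and 60.1 CPM at 3dpR (log2 2.96 ± 0.57, adjusted p = 0.122). The 969 CPM of Fed2Gut1 exceeded every other fed fish by far. The remaining 21dpS-high genes of this kind included ENSDARG00000097968 (127 to 262, 355 to 534 and 182 to 314 CPM) and si:dkeyp-1h4.9 (80.4 to 85.1, 152 to 193 and 96.9 to 113 CPM). ENSDARG00000097968 passed the threshold with tank as a block. Against the mean of the other time points it also passed in a fit over all 23 libraries (adjusted p = 0.0291, against 0.0521 in this fit).

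In the opposite direction, no gene was called as lower at 21dpS against the mean of the other time points, with 206 genes lower at an unadjusted p under 0.05 (5.28%), 16 called lower with DESeq2 and 4 with tank as a block. plb1, a phospholipase B of the kind that cleaves dietary phospholipids at the brush border, came nearest. It had 766, 532 and 451 CPM at 3dpS, 180, 169, 115 and 251 CPM at 21dpS, and 311, 256, 411 and 631 CPM at 3dpR, so the 21dpS fish lay below the other 7. The log2 difference from 3dpS was -1.70 ± 0.33 (adjusted p = 0.0528, or 0.0313 with tank as a block), and that from the mean of the other time points was -1.43 ± 0.29 (0.0521, or 0.042 with the block). plb1 overlaps kcnh1a and hhat. acsl1b, a long-chain acyl-CoA synthetase, had 257, 139 and 229 CPM at 3dpS, 83.8, 86.5, 83 and 75.9 CPM at 21dpS, and 103, 121, 127 and 118 CPM at 3dpR (from 3dpS to 21dpS -1.34 ± 0.26, adjusted p = 0.0528, or 0.0313 with the block). Its 21dpS fish agreed closely and lay below all others.

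Other genes with low values at 21dpS covered transport, signalling and metabolism. trpc1, a cation channel gene, had 212 to 257 CPM at 3dpS, 102 to 132 CPM at 21dpS and 151 to 344 CPM at 3dpR. ap5b1, a subunit of an adaptor complex of late endosomes, had 124 to 146, 45.9 to 87.6 and 122 to 219 CPM. Of the P450 genes, cyp2aa9 had 12.2, 26.6 and 16.8 CPM at 3dpS, 0, 10.6, 0 and 7.79 CPM at 21dpS, and 18.4, 25.8, 29.3 and 23.6 CPM at 3dpR (21dpS to 3dpR, log2 2.35). In each of these 3 genes the 21dpS fish lay below the other 7, as in 30 of all genes (0.768%). This separation was among the rules for naming them, and none passed the adjusted threshold.

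Some genes had a low level at 21dpS that did not return at 3dpR. alas1, the first enzyme of haem synthesis, had 31.3, 56.2 and 30.2 CPM at 3dpS, 8.06, 10.6, 2.02 and 1.95 CPM at 21dpS, and 10.8, 8.05, 5.86 and 10.7 CPM at 3dpR. All 8 later fish lay below the 3 early ones. Of all genes tested, 6.07% had every 21dpS fish below every 3dpS fish, and 3.38% had every 3dpR fish below. The share with both was not counted. The log2 difference was -2.71 ± 0.51 from 3dpS to 21dpS (adjusted p = 0.0528, or 0.0313 with tank as a block) and -2.12 ± 0.48 from 3dpS to 3dpR (0.577). alas1 passed the filter on low counts only through the 3dpS fish, in which it is high, so these p-values are not independent evidence. AGFG1, a trafficking adaptor gene, had 191, 288 and 246 CPM at 3dpS, 67.7, 104, 136 and 132 CPM at 21dpS, and 115, 122, 135 and 120 CPM at 3dpR, with the same separation of the 3dpS fish (log2 -1.14 and -0.97, adjusted p = 0.0978 for the first).

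The carriers of secreted lipid were described over a list of 18 matched apolipoprotein genes, 11 of them tested. From 3dpS to 21dpS, 9 of the 11 lay above 0, 5 had an unadjusted p under 0.05, all higher (background 7.71%), and the median log2 difference was 0.68 against 0.01 over all genes. From 21dpS to 3dpR, 10 of 11 lay below 0, 7 had an unadjusted p under 0.05, all lower (background 3.07%), and the median was -0.81 against -0.02. Members called against the mean of the other time points were apoa4b.3 and apoeb. The median from 3dpS to 21dpS ranged from 0.38 to 0.82 over the alternatives and was 0.74 without 3dpS Fed1Gut1. The list was chosen with results of these data known and holds both called genes, so its direction is not independent evidence.

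Within the apolipoproteins, the A-IV copies had unequal differences. apoa4b.2 had 45.1, 90.2 and 65.3 CPM at 3dpS, 224, 259, 227 and 160 CPM at 21dpS, and 78.4, 188, 43 and 49.3 CPM at 3dpR (3dpS to 21dpS 1.69 ± 0.45, adjusted p = 0.136), with 3dpR Fed1Gut3 inside the 21dpS range. apoa4b.1 had 28.1 to 46.9, 43.5 to 76.9 and 19.3 to 32.3 CPM, so its 3dpR fish lay below its 21dpS fish, as in 58 of all genes (1.49%), with 73 above (1.87%). apoc2, the activator of lipoprotein lipase, had 31 to 50.3 CPM at 3dpS, 54.5 to 86.5 CPM at 21dpS and 25.4 to 45.1 CPM at 3dpR. Its 21dpS fish lay above the rest, as in 32 of all genes (0.819%). The apolipoprotein B gene apobb.1, the structural protein of chylomicrons, had 1360 to 2050, 1310 to 1920 and 889 to 1450 CPM and overlapped among all time points. The copies share sequence, and how the counting split shared reads among them is not given in the sources used here.

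Other genes of fat uptake and chylomicron assembly were divided in sign. Of 18 tested, 5 lay above and 13 below 0 from 3dpS to 21dpS (median -0.12, or 0.03 without 3dpS Fed1Gut1). Over all genes, 50.7% lay above and 49.3% below 0. At an unadjusted p under 0.05, 2 were higher and 4 lower (background 7.71% and 6.76%). plin2, a coat protein of lipid droplets, had 3.47, 7.39 and 1.68 CPM at 3dpS, 20.9, 10.6, 89 and 31.1 CPM at 21dpS, and 4.61, 9.66, 11.7 and 12.9 CPM at 3dpR (log2 3.06 ± 0.73, adjusted p = 0.0978, or 0.0313 with tank as a block). Without the 21dpS fish, in which it is high, plin2 would not have passed the filter on low counts. Its p-values are therefore not independent evidence. plin2 overlaps hip1. cd36, a fatty acid receptor, had 486, 383 and 560 CPM at 3dpS, 171, 141, 217 and 276 CPM at 21dpS, and 271, 188, 338 and 275 CPM at 3dpR (-1.24 ± 0.28, adjusted p = 0.0857, or 0.0313 with the block). The 3dpS fish lay above all later ones, a separation whose share over all genes was not counted. The sterol transporter gene npc1l1 had 28.1 to 48.6, 6.07 to 12.9 and 1.54 to 34.3 CPM, and mttp, which loads lipid onto apolipoprotein B, had 51.7 to 70.4, 68.8 to 138 and 49.3 to 106 CPM. scarb1, a lipid receptor, had 55.6, 20.7 and 50.3 CPM at 3dpS, 7.06 to 27.3 CPM at 21dpS and 8.58 to 19.5 CPM at 3dpR (3dpS to 3dpR -1.78 ± 0.50, adjusted p = 0.631). Without the 3dpS fish, in which it is high, scarb1 would not have passed the filter either.

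Sterol synthesis genes had lower values at 21dpS than at 3dpS. Of 23 matched genes only 6 were tested, and from 3dpS to 21dpS all 6 lay below 0, 4 with an unadjusted p under 0.05 (background 6.76%), with a median of -1.43. The summed level over matched members was 531 to 600 CPM at 3dpS, 215 to 257 CPM at 21dpS and 229 to 601 CPM at 3dpR. fdps, farnesyl diphosphate synthase, had 45.1, 41.4 and 23.5 CPM at 3dpS, 6.45, 5.29, 4.05 and 5.84 CPM at 21dpS, and 9.22, 11.3, 5.86 and 42.9 CPM at 3dpR (3dpS to 21dpS -2.70 ± 0.59, adjusted p = 0.0857). One 3dpR fish, Fed2Gut3, was thus in the 3dpS range and the other 3 were not. Without the 3dpS fish, in which it is high, fdps would not have passed the filter on low counts. Its p-value is therefore not independent evidence. idi1, the isomerase of the same branch, had 168, 203 and 285 CPM at 3dpS, 80.6, 51.2, 70.8 and 99.3 CPM at 21dpS, and 92.2, 172, 68.4 and 260 CPM at 3dpR (-1.53 ± 0.39, adjusted p = 0.135). srebf2, the regulator of the pathway, had 36.9 to 47.3 CPM at 3dpS, 10.1 to 28.2 CPM at 21dpS and 18.4 to 39 CPM at 3dpR. No member was called, idi1 overlaps nck1b, and fdps overlaps no RefSeq gene.

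Brush border enzymes and nutrient transporters were also lower at 21dpS as a group of values. Of 22 tested genes, 4 lay above and 18 below 0 from 3dpS to 21dpS (background 50.7% and 49.3%). An unadjusted p under 0.05 was found for 8, all lower (background 6.76%), and 8 had all 21dpS fish below all 3dpS fish (background 6.07%). The median was -0.42, or -0.47 without 3dpS Fed1Gut1. From 21dpS to 3dpR the counts were 18 above and 4 below 0 (background 48.4% and 51.6%, list median 0.29). The sodium and glucose transporter gene slc5a1, which overlaps no RefSeq gene, had 59 to 79.9, 37.1 to 52.6 and 50.7 to 75.1 CPM. The dipeptidyl peptidase gene dpp4 had 65.3 to 116, 32.4 to 60.3 and 56.3 to 120 CPM, and the meprin gene mep1a.1 had 466 to 576, 251 to 395 and 370 to 470 CPM. The summed level of the list was 5040 to 6080 CPM at 3dpS, 3600 to 4210 CPM at 21dpS and 4100 to 4920 CPM at 3dpR, so the 3dpS fish lay above the rest.

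Genes for metal handling and retinoids gave few tested members. Of 10 tested metal genes, 9 lay below 0 from 3dpS to 21dpS (median -0.61, and -0.89 to -0.15 over the alternatives) and all 10 below 0 from 3dpS to 3dpR (median -0.51). Over all genes, 49.3% and 52% lay below 0 in these comparisons. In the first, 3 metal genes were lower at an unadjusted p under 0.05 (background 6.76%). aco1, the cytosolic aconitase that doubles as iron regulatory protein, had 94.6 to 132, 47.6 to 66.2 and 72.4 to 84.1 CPM. Its 3 time points did not overlap, a pattern not counted over all genes. The transferrin receptor gene tfr1b had 288 to 429, 115 to 249 and 143 to 326 CPM. Among 7 retinoid and carotenoid genes, bco1, which cleaves carotene, had 137, 155 and 213 CPM at 3dpS, 1.61, 28.2, 101 and 58.4 CPM at 21dpS, and 111, 111, 76.2 and 77.2 CPM at 3dpR (-1.85), while cyp26a1 was high at 21dpS as given above. The median of this list from 3dpS to 21dpS was -1.02, and -0.02 without 3dpS Fed1Gut1.

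Ribosome genes had higher values at 21dpS than at 3dpS, almost without exception in sign. Of 64 tested genes of cytosolic ribosomal proteins, 63 lay above 0 (background 50.7%), 22 had an unadjusted p under 0.05, all higher (background 7.71%), 14 had non-overlapping groups (background 5.92%), and the median log2 difference was 0.78. Without 3dpS Fed1Gut1, 68 of 69 lay above 0, 41 had an unadjusted p under 0.05 and the median was 1.07. The shares over all genes of that fit are not given here. Their summed level was 4970, 3140 and 2990 CPM at 3dpS, 5540, 7390, 5440 and 4730 CPM at 21dpS, and 4520, 6170, 4280 and 4150 CPM at 3dpR. The 3dpS fish of tank 2 were thus lowest and the groups overlapped through 3dpS Fed1Gut1. rpl22 had 33, 16.3 and 25.1 CPM at 3dpS, 38.7, 67, 44.5 and 50.6 CPM at 21dpS, and 33.8, 39, 35.2 and 40.8 CPM at 3dpR (1.02 ± 0.34, adjusted p = 0.194). From 3dpS to 3dpR 61 of 64 lay above 0 (background 48%, with 52% below), with a median of 0.39, or 0.78 without 3dpS Fed1Gut1. No member was called in any comparison.

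Nucleolar genes of ribosome assembly showed the same sign. Of 32 tested, 29 lay above 0 from 3dpS to 21dpS (background 50.7%), 11 with an unadjusted p under 0.05, all higher (background 7.71%, list median 0.69). From 3dpS to 3dpR, 28 lay above 0 (background 48%, list median 0.46). Without 3dpS Fed1Gut1 these medians were 0.76 and 0.48. npm1a, nucleophosmin, had 139, 135 and 117 CPM at 3dpS, 388, 355, 247 and 202 CPM at 21dpS, and 251, 327, 203 and 318 CPM at 3dpR (1.19 ± 0.29, adjusted p = 0.0978). All 8 later fish lay above the 3dpS fish. Over all genes, 5.92% had every 21dpS fish above every 3dpS fish and 4.35% every 3dpR fish above, and the share with both was not counted. The rRNA methylase fibrillarin, fbl, had 19.1, 10.3 and 3.35 CPM at 3dpS, 32.2, 54.7, 30.4 and 21.4 CPM at 21dpS, and 40, 45.1, 17.6 and 32.2 CPM at 3dpR (1.66). Summed over matched members, the list had 2040 to 2550 CPM at 3dpS, 2870 to 3430 CPM at 21dpS and 2670 to 2950 CPM at 3dpR, with no overlap between 3dpS and either later time point.

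**Figure D3:**
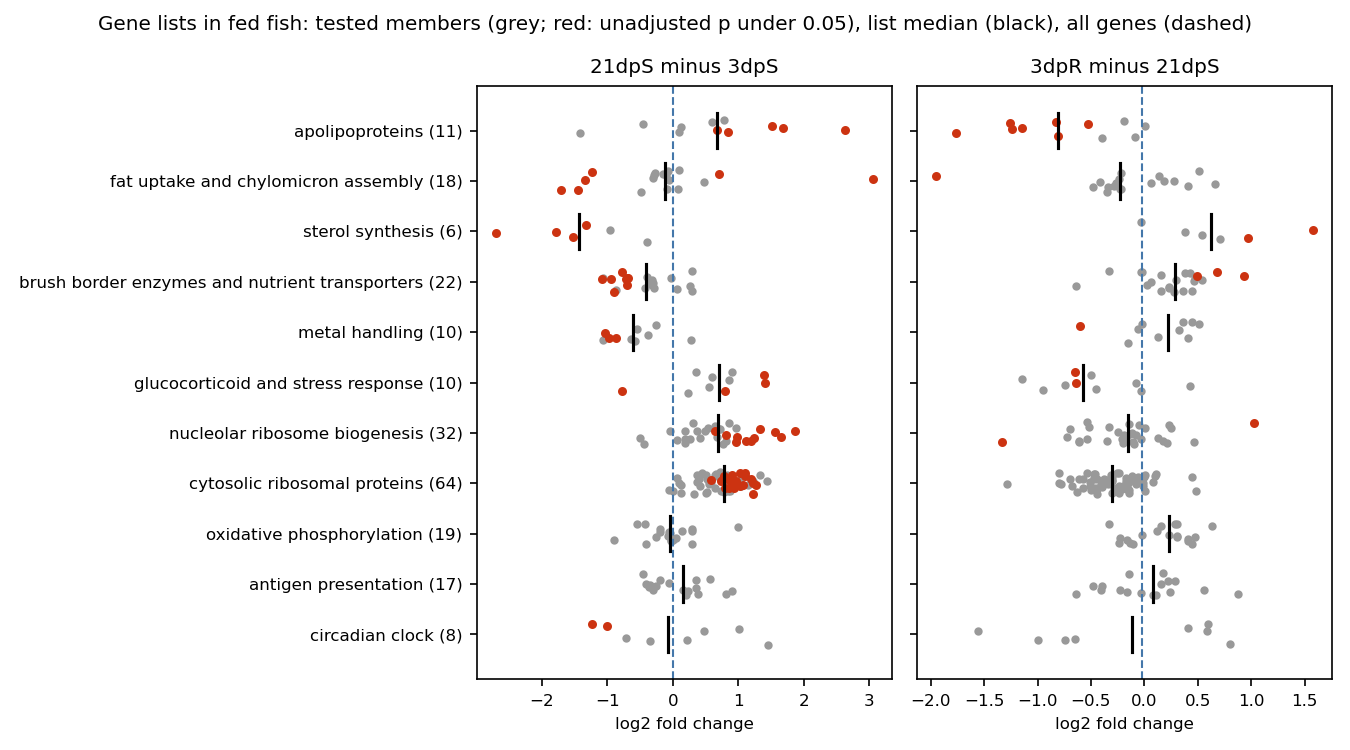
Log2 fold changes of the tested members of 11 gene lists from 3dpS to 21dpS (left) and from 21dpS to 3dpR (right), in grey, with members at an unadjusted p under 0.05 in red, the list median as a black bar and the median of all genes as a dashed line. On the left the medians run from -1.43 for sterol synthesis to 0.78 for cytosolic ribosomal proteins.

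**Figure D4:**
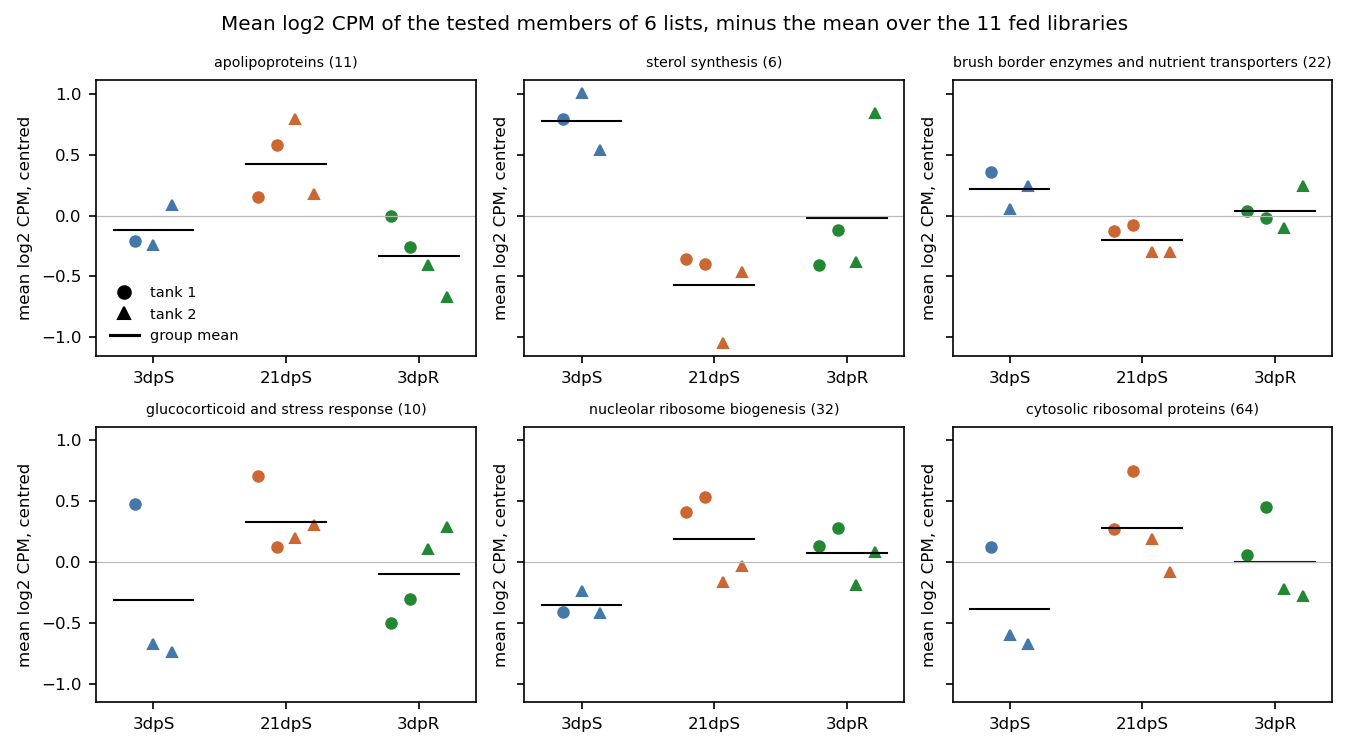
Mean log2 CPM of the tested members of 6 gene lists in each fed library, centred on the mean over the 11 libraries, by time point, with circles for tank 1, triangles for tank 2 and a line at the group mean. Sterol synthesis was at 0.54 to 1.01 in the 3dpS fish and at -1.05 to -0.36 in the 21dpS fish, and 3dpR Fed2Gut3 was at 0.84.

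Stress, immune and clock genes were described in the same way. Of 10 tested glucocorticoid and stress genes, 9 lay above 0 from 3dpS to 21dpS (background 50.7%, list median 0.70). At an unadjusted p under 0.05, 3 were higher and 1 lower (background 7.71% and 6.76%). From 21dpS to 3dpR, 9 lay below 0 (background 51.6%, list median -0.57). Without 3dpS Fed1Gut1, the library with the highest value of this list at 3dpS, the median from 3dpS to 21dpS was 1.42. sgk1, a kinase induced by glucocorticoids, had 34.7, 13.3 and 13.4 CPM at 3dpS, 95.1, 24.7, 32.4 and 60.3 CPM at 21dpS, and 18.4, 19.3, 27.4 and 47.2 CPM at 3dpR, and tsc22d3, another such target, had 76.9 to 191, 167 to 213 and 92.2 to 147 CPM. For sgk1 the time points overlapped, while for tsc22d3 the 3dpR fish lay below the 21dpS fish and the 3dpS fish overlapped both. Interferon response genes had 10 of 13 above 0 from 3dpS to 21dpS (median 0.42, or 0.26 without 3dpS Fed1Gut1, with a lowest alternative of 0.16). From 21dpS to 3dpR, 10 of 13 lay below 0 (median -0.30), with 2 lower at an unadjusted p under 0.05 (background 3.07%). rsad2, the antiviral gene viperin, was low throughout, at 1.74 to 18.4, 10.1 to 38.9 and 1.61 to 12.3 CPM. The 8 tested clock genes divided evenly (4 and 4, or 6 above and 3 below 0 without 3dpS Fed1Gut1), with bhlhe41 at 57.7 to 111, 28.3 to 65.3 and 39 to 93.8 CPM. Oxidative phosphorylation (19 tested, median -0.04), antigen presentation (17 tested, 0.16), lysosome-rich enterocyte genes (19 tested, 0.08) and fatty acid oxidation (11 tested, 0.13) had medians from 3dpS to 21dpS near that of all genes, as did the mitochondrially encoded genes (13 tested, 0.17) and polyamine, arginine and amino acid metabolism (13 tested, -0.05). Without 3dpS Fed1Gut1 the medians were 0.14, 0.13, 0.15, 0.28 and 0.13 for the first 5 of these lists and 0.32 for the last, which then had 11 of 14 above 0. Chaperones had a median of 0.20 over 22 tested genes, or 0.61 without 3dpS Fed1Gut1, the cell cycle list 0.41 over 7 (-0.22 to 0.66 over the alternatives, so its sign was not stable) and the inflammation list -1.31 over 5 (-2.23 to -0.15). No member of these stress, immune, clock and metabolic lists was called.

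Markers of organs that adjoin the gut differed widely among single fish. Exocrine pancreas markers (22 matched, 14 tested) summed to 6470, 866 and 1710 CPM at 3dpS, 438, 1390, 1010 and 409 CPM at 21dpS, and 1220, 1040, 1170 and 1670 CPM at 3dpR. A single marker, pla2g1b, which overlaps asgrl1, gave much of some sums. It had 921 CPM in 3dpS Fed2Gut3 and 554 CPM in 21dpS Fed2Gut1, but 170 CPM in 3dpS Fed1Gut1. The hepatocyte marker tfa had 615, 387 and 175 CPM in the same libraries. Which tissue the pla2g1b reads came from was not tested. All 14 tested markers lay below 0 from 3dpS to 21dpS (background 49.3%, list median -2.07), 10 of them with an unadjusted p under 0.05 (background 6.76%). Without 3dpS Fed1Gut1 the counts were 3 above and 11 below, none past an unadjusted p of 0.05, with a median of -0.27. The 9 tested hepatocyte markers also lay below 0 (median -0.64, or -0.98 without 3dpS Fed1Gut1), with sums of 563, 553 and 1560 CPM, then 193, 363, 1180 and 393 CPM, then 510, 155, 907 and 584 CPM, which overlap. The 7 vitellogenin genes, yolk precursors made by the liver of females, summed to 1.74, 4.43 and 1.68 CPM at 3dpS, 95.1, 670, 30.4 and 481 CPM at 21dpS, and 3.07, 77.3, 1.95 and 689 CPM at 3dpR. All 4 21dpS fish lay above the 3dpS fish, while the 3dpR fish spanned from 1.95 to 689 CPM. None of the 7 was called, and 12 of 21 ovary markers had no read in any library. With the counted strand not known, this does not show that ovary was absent. The part of pancreas or liver RNA in the differences between time points was not tested.

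**Figure D5:**
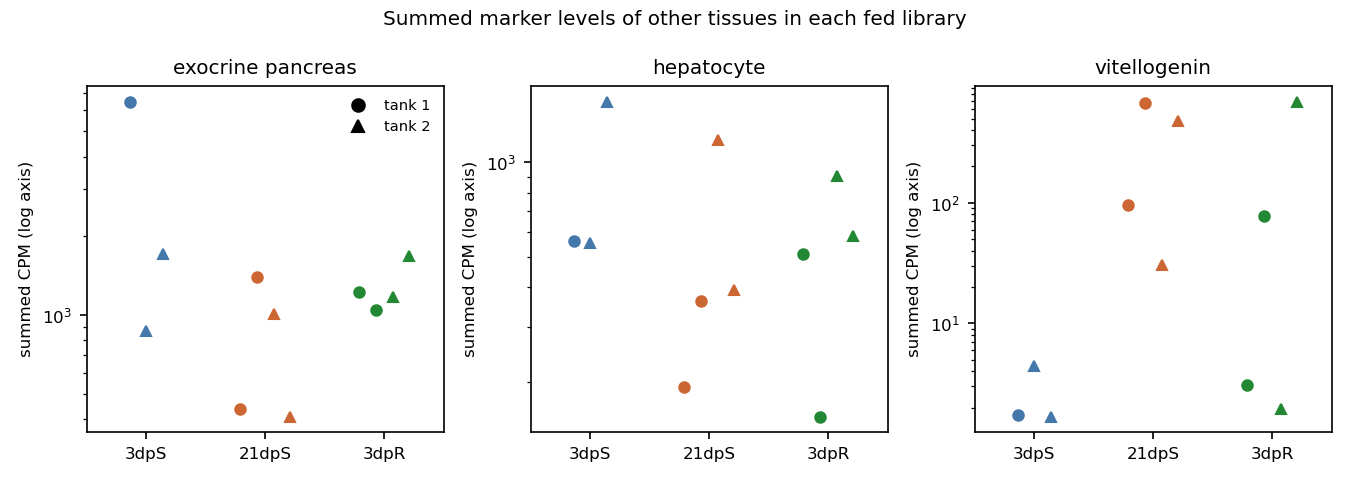
Summed CPM (log axis) of exocrine pancreas, hepatocyte and vitellogenin markers in each fed library by time point, with circles for tank 1 and triangles for tank 2. 3dpS Fed1Gut1 has the highest pancreas sum (6470 CPM), and the vitellogenin sums run from 1.68 to 4.43 CPM at 3dpS and from 30.4 to 670 CPM at 21dpS.

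Across the whole span, from 3dpS to 3dpR, no gene was called, and the genes nearest to a call are given by value. themis2, a signalling protein of B cells and macrophages, had 90.3, 105 and 112 CPM at 3dpS, 248, 171, 178 and 165 CPM at 21dpS, and 204, 301, 225 and 242 CPM at 3dpR (1.24 ± 0.26, adjusted p = 0.577), and it overlaps rpa2. hcls1, an actin regulator of leukocytes, had 799, 699 and 623 CPM at 3dpS, 1590, 1360, 1440 and 1340 CPM at 21dpS, and 1040, 1320, 1420 and 1510 CPM at 3dpR (3dpS to 21dpS 1.02 ± 0.22, adjusted p = 0.0857, or 0.0313 with tank as a block). It overlaps llph. Of 24 matched macrophage and neutrophil markers, 6 were tested, and 2 lay above and 4 below 0 from 3dpS to 21dpS (median -0.17, or -0.10 without 3dpS Fed1Gut1). The hyaluronan synthase gene has3 had 125, 102 and 90.5 CPM at 3dpS, 214, 115, 176 and 181 CPM at 21dpS, and 232, 182, 287 and 277 CPM at 3dpR (3dpS to 3dpR 1.21 ± 0.28, adjusted p = 0.577). In all 3 genes every 3dpR fish lay above every 3dpS fish, as it did in 170 of the genes tested (4.35%), while 132 had every 3dpR fish below (3.38%). grnas had 5900, 5370 and 3580 CPM at 3dpS and 7930, 13800, 14500 and 18300 CPM at 3dpR (1.46 ± 0.35, adjusted p = 0.577), but it overlaps grna.1 and grna.2. In the other direction, crk, an adaptor of tyrosine kinase signalling, had 71.2 to 114 CPM at 3dpS and 40.8 to 51.5 CPM at 3dpR, and pgrmc2, a haem-binding membrane protein, had 46.9 to 73.7 and 19.5 to 24.1 CPM. Their 21dpS values, 40.9 to 81.2 and 12.9 to 58.7 CPM, overlapped both.

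Fish of the starved tanks were sampled on the same days and give the levels of the same genes without food up to 21dpS, and with food again by 3dpR. apoeb had 51.3 to 87.7 CPM in starved fish at 3dpS, 55.7 to 95.5 CPM at 21dpS and 54.7 to 77.5 CPM in refed fish at 3dpR. In a fit over all 23 libraries its difference between 21dpS and the mean of the other time points was 1.37 ± 0.24 in fed and -0.01 ± 0.24 in starved fish, and the difference between these, 1.38 ± 0.34, was not called (adjusted p = 0.192). For apoa4b.3 the starved fish had 7.54 to 83.1, 23.8 to 50.3 and 17 to 43.7 CPM, and the difference between fed and starved was 2.28 ± 0.62 (adjusted p = 0.274). map3k4, by contrast, had 75.4 to 123, 117 to 374 and 113 to 232 CPM in the starved tanks, where it also rose at 21dpS (1.04 ± 0.25, adjusted p = 0.0219), and fed and starved differed by 0.22 ± 0.37 (adjusted p = 0.933). cyp26a1 had 0 reads in every starved and refed fish. ENSDARG00000089635 had 0 to 11.3 CPM in all of them, and jak2a had 3.02 to 51.7 CPM at 3dpS, 3.29 to 26.9 CPM at 21dpS and 32.8 to 223 CPM at 3dpR.

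Over all 4628 genes of that fit, the change from 3dpS to 21dpS was called for 7 genes in fed and 95 in starved fish. The counts at an unadjusted p under 0.05 were closer, 702 in fed and 857 in starved fish, with fewer fed than starved fish at 3dpS. The difference between the fed and the starved change was called for 0 genes with edgeR (400 at an unadjusted p under 0.05, smallest adjusted p = 0.183) and was not computed with another tool. The same difference for 21dpS against the mean of the other time points gave 0 calls (320 at an unadjusted p under 0.05, smallest adjusted p = 0.0857). Side by side, the median log2 change from 3dpS to 21dpS in fed and starved fish was 0.64 and -0.38 for apolipoproteins, -1.43 and 0.16 for sterol synthesis, and 0.80 and 0.05 for cytosolic ribosomal proteins. It was -0.43 and -0.36 for the brush border list and -0.61 and -0.74 for metal handling. These medians are descriptions, and no difference between them was tested.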

How the data were processed

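RNA-seq was analysed in the 11 continuously fed libraries, with the 12 starved or refed libraries used only where stated. The files deposited by the authors hold whole-number counts per Ensembl gene with no normalization. Single-end reads of 50 bp from rRNA-depleted total RNA had been trimmed (Trim Galore), aligned to GRCz10 (STAR) and assigned to genes (HTSeq). The strand option and the annotation release are not given in the sources used here. Of 34326 identifiers, 26803 had a symbol, and 1056 of 1297 list symbols matched 1 identifier.

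Libraries were grouped by the time point, diet and tank read from their names. The analysis used edgeR 4.0.16 under R 4.3.3 (TMM factors, filterByExpr with a minimum count of 10, robust glmQLFit and glmQLFTest) in 1 fit with 3 group means. Tests were two-sided with Benjamini-Hochberg adjustment over 3905 genes, and an adjusted p under 0.05 was a call. SE is that of the fitted log2 difference, and log2 CPM used a prior count of 2. Pairs of replicates differed by more than sampling noise (chi-square per degree of freedom 6.14 to 54.7). The code was tested on simulated data.

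Alternatives were DESeq2 1.42.0 and its size factors, other filters, omission of the 100 most abundant genes, other sets of libraries, and each library left out. Tank, read from the number after the diet in the library names, was the block. Tank differences correlated across 3905 genes at 0.0897 between 3dpS and 21dpS, 0.411 between 21dpS and 3dpR and -0.107 between 3dpS and 3dpR. The test of fed against starved changes was added after seeing the data.

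Named genes were those called, the 5 smallest p-values in each direction of each contrast, the first 10 with all 21dpS fish above or below the rest, and 2 to 4 members per list by p over the 3 time points. A choice was made among these, and some list members, the abundant overlapping genes and the markers were named after their values were seen. The members and lists were chosen with earlier results of these data known. Gene names and overlaps came from RefSeq assembly GRCz12tu, another build than that of the files, and no coordinates were taken from it. Some items are not reported here.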

Additional observations from a re-analysis of the deposited data

Results flagged for a closer look

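Of 86 sets of 4 libraries examined (named genes and list sums at 21dpS and 3dpR), 11 had 1 library that stood apart. Its gap to the nearest other exceeded the critical value of Dixon's test at 95%. That test assumes normal values, and these are untransformed CPM, mostly of genes chosen by their values. The count of 11 is therefore not set against a chance rate. At 21dpS, Fed2Gut1 stood apart with 2.02 CPM of cyp26a1 (33.1 to 37.1 in the others) and 969 CPM of jak2a (132 to 189). Fed1Gut1 at 21dpS stood apart with 121 CPM of BZW1 (37.1 to 48.7), 355 CPM of ENSDARG00000097968 (514 to 534) and 248 CPM of themis2 (165 to 178). Fed1Gut3 at 21dpS stood apart with 45.9 CPM of ap5b1 (80.6 to 87.6) and an apolipoprotein sum of 4200 CPM (3110 to 3280). At 3dpR, Fed2Gut3 had 42.9 CPM of fdps (5.86 to 11.3) and a vitellogenin sum of 689 CPM (1.95 to 77.3). Fed2Gut2 at 3dpR had 3.91 CPM of cyp26a1 (0 in the others), a value of 2 reads, and Fed1Gut2 had 96.9 CPM of si:dkeyp-1h4.9 (111 to 113).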

How the results depend on the processing

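The number of called genes depended on the filter and the tool more than on the scaling. From 3dpS to 21dpS it was 76 with no filter on low counts, 10 with at least 10 reads in every library, 2 in a fit of those time points alone, 7 with all 23 libraries, 16 with tank as a replicate block and 70 with DESeq2. For 21dpS to 3dpR it was 22 with no filter, 0 with at least 10 reads, 0 in a fit of the 2 time points alone and 2 with DESeq2, and for 3dpS to 3dpR it was 6 with no filter and 1 with DESeq2. For 21dpS against the mean of the others it was 63 with no filter, 9 with all 23 libraries, 16 with the block and 34 with DESeq2. Over the 3 time points it was 75 with no filter, 0 with at least 10 reads, 4 with all 23 libraries and 38 with DESeq2. With DESeq2 size factors, or without the 100 most abundant genes, every count stayed within 1.5 times that reported. Leaving out each library gave 0 to 5, 0 to 2, 0 to 1, 2 to 8 and 0 to 3 calls in these comparisons and a share of variance of 25.3 to 32%, and that share was 25.8% (exact permutation p = 0.0513) over all genes. For named genes, 563 alternative values kept their side of the threshold, 37 lost a call, 60 gained it and 0 changed sign. Genes given above with a block value were not all called in the edgeR fit over all 23 libraries. From 3dpS to 21dpS, alas1 (adjusted p = 0.101), glt8d1 (0.101) and hcls1 (0.0629) were not. plb1 (0.0148), si:ch211-240l19.6 (0.0146), acsl1b, map3k4 and si:ch211-195b11.4 (0.0429 each) were. homezb was not called there against the mean of the other time points (0.112). A fit of single pairs is not defined for the comparisons that use all time points. Low depth limits every gene with few reads, and the spread between 3 or 4 fish from 2 tanks limits the rest. The cause of these changes in counts was not tested.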

Other observations

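Several genes outside the described groups had every 21dpS fish above, or every one below, the 3dpS fish. This separation was common: of all 3905 genes tested, 231 (5.92%) had it above and 237 (6.07%) below. glt8d1, a glycosyltransferase gene, had 254, 398 and 213 CPM at 3dpS, 862, 681, 678 and 605 CPM at 21dpS, and 498, 388, 604 and 687 CPM at 3dpR (3dpS to 21dpS log2 1.29, adjusted p = 0.0857, or 0.0313 with tank as a block). si:ch211-195b11.4 had 2140 to 2640 CPM at 3dpS, 4320 to 6350 CPM at 21dpS and 3360 to 4270 CPM at 3dpR (1.06, adjusted p = 0.0857, or 0.0214 with the block). Its 3dpR fish also lay above the 3dpS fish, whereas those of glt8d1 overlapped them. polg, the polymerase of mitochondrial DNA, had 6.7 to 12.2, 19.5 to 33.8 and 25.4 to 43.5 CPM. si:ch211-240l19.6 had 252, 42.9 and 70.4 CPM at 3dpS, 11.3, 14.1, 8.09 and 19.5 CPM at 21dpS, and 44.6, 19.3, 39.1 and 51.5 CPM at 3dpR (-3.17, adjusted p = 0.0528, or 0.0329 with the block), and its 3dpR fish overlapped the 3dpS fish. Of the xenobiotic genes (23 tested), cyp3c1 had 142 to 164 CPM at 3dpS, 56.4 to 102 CPM at 21dpS and 54.7 to 112 CPM at 3dpR (-1.07 ± 0.30), and 9 members lay above and 14 below 0 from 3dpS to 21dpS (median -0.21, or 0.12 without 3dpS Fed1Gut1).

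si:dkey-11f4.14, noticed after its values were seen, had 55.6, 60.6 and 38.5 CPM at 3dpS, 732, 222, 332 and 352 CPM at 21dpS, and 43, 43.5, 235 and 290 CPM at 3dpR. It was called from 3dpS to 21dpS in the fit of those time points alone (log2 2.99, adjusted p = 0.0215) but not in the fit of all fed libraries (2.98 ± 0.76, adjusted p = 0.151). At 3dpR the fish of tank 1 were at the 3dpS level and those of tank 2 in the 21dpS range.

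In the library 3dpS Fed1Gut1, alas2, the haem synthesis enzyme of red cells, which overlaps another RefSeq gene, had 32800 CPM against 1030 to 9930 CPM in the other 10 fed libraries, while 9 haemoglobin genes together held 25 reads over all 11. With the counted strand not known, neither value measures red cells.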
